A study of Arabidopsis thaliana with 24 samples.

Results

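The rows described here are the plastid genome transcripts of Arabidopsis thaliana roots, taken as every row of the count table whose identifier starts with ATCG and whose counts sum to 24 or more over all libraries. All 133 rows with such an identifier passed, of 33602 rows in the table. The choice used the identifier and a minimum count only, not a difference between samples. Together these 133 rows held 1.38% of all counts.

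Roots were harvested at 6 days in the light from plants carrying HF-RPL18, a cytosolic ribosomal protein L18 with an epitope tag, and ribosomes with their RNA were recovered with anti-FLAG beads. The tag was driven by the 35S promoter or by 1 of 5 promoters labelled for a root layer, namely ACR4 for the columella, SHR for the stele, SCR for the endodermis, CO2 for the cortex and WER for the epidermis. Each of these 6 transgenic lines was studied as Columbia-0 (Col0 below) and as the hyl1 mutant, which lacks a double-stranded RNA binding protein of microRNA processing, with 2 libraries in each of 12 groups. No library came from untagged plants or from input RNA, all groups carry the tagged protein, and the label of a layer names the promoter and not a sorted cell. Nothing in the labels tells whether both libraries of a group grew as independent cultures. The p-values then reflect the scatter among these libraries alone, and that scatter may be technical.

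Plastids keep a small genome of bacterial origin that encodes part of the photosynthetic complexes, the plastid ribosome and an RNA polymerase, along with ribosomal and transfer RNAs. Its transcripts are made inside the organelle by that polymerase, which is steered by nuclear sigma factors, and by a phage-type polymerase encoded in the nucleus, and they are translated on plastid ribosomes, which do not contain the tagged cytosolic protein. Root plastids are mostly colourless, and apart from photosynthesis they make starch, fatty acids and amino acids. In a pull-down of whole tissue, fewer cells of a type and less RNA per cell cannot be told apart.

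Libraries held 2868803 to 13575556 counts. The labels number the libraries of the WER line and of the SHR line in runs apart from the single run of the other 4 lines, so these lines cannot be told apart from their run of numbers when lines are compared. HYL1 counts were 34 to 145 in Col0 libraries and 1 to 43 in hyl1 libraries, and in each of the 6 lines both hyl1 libraries had a lower normalised HYL1 level (CPM, counts scaled to a common library size) than both Col0 libraries. The separation was narrow in the SHR line, at 8.44 and 9.93 CPM in hyl1 against 12.7 and 15.3 CPM in Col0, and these hyl1 levels exceed the lowest Col0 libraries of the 35S line (5.33 CPM) and the SCR line (6.79 CPM). In the CO2 line hyl1 had 3.20 and 7.46 CPM against 9.47 and 12.4 CPM in Col0. Of the layer markers, all 6 endodermis genes were higher in the SCR line and 5 of 6 epidermis genes in the WER line than in the other layer lines. In the SHR line 2 of 5 stele genes were higher and in the ACR4 line 3 of 6 columella genes, while 4 of 6 columella genes were also higher in the WER line. None of 3 cortex genes was higher in the CO2 line, where their summed level was 2.6 to 8.5 CPM. Of all genes 12.2% were higher in the SCR line, 19.2% in WER, 14.1% in SHR, 8.32% in ACR4 and 8.41% in CO2. The marker lists include SHR, SCR, MYB66 (WER) and CR4 (ACR4), genes whose promoters drive the tags, which are no independent check of the labels. Whether a cortex marker is the gene of the CO2 promoter was not looked up. CR4 had group means of 168 and 1100 CPM in the ACR4 line and at most 8.92 CPM in other lines. The Col0 SCR replicate 2 library had an endodermis marker sum of 431 CPM against 1650 to 1852 in the other 3 libraries of that line. The 2 hyl1 WER libraries resembled each other least, with a correlation of log2 CPM across genes of 0.75 where the other 11 groups had 0.93 to 0.97.

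The counts were spread very unevenly over the plastid rows. Row totals ran from 25 to 436715 with a median of 3679, and 89 of the 133 rows had a count in every library. ATCG01180, ATCG00950, ATCG01210 and ATCG00920 held 57.8% of all plastid counts, the 10 rows with the most counts held 72.5%, and 38 rows held 90%. Values here are not corrected for transcript length, so they do not rank transcripts by abundance. Per row, 128 of the 133 passed the filter on low counts and were tested, and the 5 that did not had totals of 25 to 70.

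Many rows came in pairs with nearly the same counts. In 18 pairs the counts were close in all 24 libraries (chi-square under 2 times its degrees of freedom, totals within 5%), and these pairs held 70.9% of plastid counts. ATCG00980 and ATCG01150 were identical in every library, the only pair that was, and the 4 rows with the most counts form the pairs ATCG00950 with ATCG01180 and ATCG00920 with ATCG01210. Plastid genomes of flowering plants carry a large inverted repeat whose genes are present in duplicate, and reads of identical copies cannot be told apart. Whether the pairs are such copies, and how the counting split their reads, was not tested. The rows of a pair are not treated as independent of each other, and counts of rows below include both.

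The sources used here pair only 6 of these identifiers with a product. ATCG00670 is noted as the plastid-encoded CLP P, the proteolytic subunit of the Clp protease. ATCG01310, ATCG00660 and ATCG00750 are noted as ribosomal proteins L2, L20 and S11, parts of the plastid ribosome. ATCG00530 is noted as related to a CemA-like proton extrusion protein and ATCG00430 as photosystem II reaction center protein G. These products are the wording of the notes, which was not checked against another source. All other rows are given by identifier.

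The plastid share of a library was lowest in the 35S line and varied 18.1-fold over the 24 libraries. The Col0 35S libraries had 0.199% and 0.193% and the hyl1 35S libraries 0.223% and 0.310%. The Col0 ACR4 libraries had 0.501% and 0.440%, and the hyl1 ACR4 libraries 1.09% and 2.25%. All 4 libraries of the 35S line lay below all 20 layer libraries, whose share ran from 0.374% to 3.50% with a median of 1.31%. The Col0 SHR libraries had 1.11% and 1.50% and the hyl1 SHR libraries 1.25% and 1.28%. The Col0 CO2 libraries had 1.69% and 1.55% and the hyl1 CO2 libraries 1.90% and 1.66%. In the SHR and CO2 lines the genotypes overlapped. The Col0 SCR libraries had 0.813% and 1.34% and the hyl1 SCR libraries 0.374% and 0.446%. The Col0 WER libraries had 1.95% and 0.467% and the hyl1 WER libraries 3.50% each. Among the layers the lowest hyl1 shares were thus in the SCR line and the highest in the WER line, and the Col0 WER replicates differed more from each other than those of any other Col0 group. Counting error was small beside these differences, with a 95% Wilson interval of 0.190% to 0.196% in the library with the lowest share and of 3.49% to 3.51% in the highest.

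**Figure D1:**
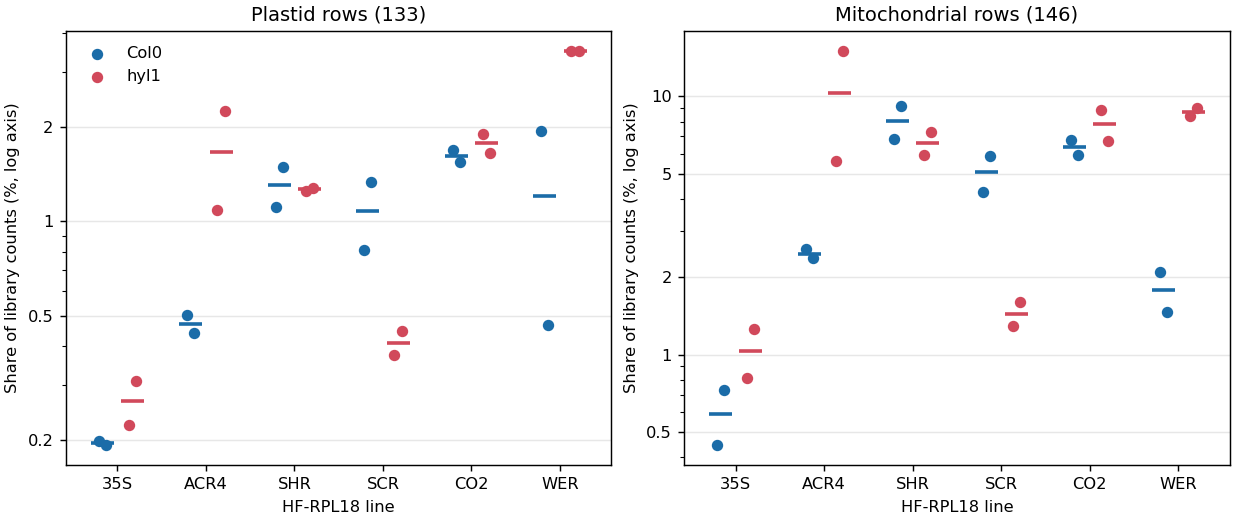
Share of library counts (percent, log axis) of the 133 plastid rows on the left and of the 146 mitochondrial rows on the right, for each of 6 lines; points are libraries, bars the mean of 2, blue Col0 and red hyl1. The 35S libraries sit lowest in both panels, and hyl1 lies above Col0 in the ACR4 and WER lines and below it in the SCR line for mitochondrial rows, while a Col0 WER library at 1.95% lies apart from its replicate in the plastid panel.

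The genotypes were ordered differently in the 6 lines. As a ratio of group means, the plastid share of hyl1 was 3.55 times that of Col0 in the ACR4 line and 2.90 times in the WER line, and in the SCR line Col0 was 2.62 times hyl1. The ratio was 1.36 in the 35S line, 0.969 in the SHR line and 1.10 in the CO2 line. A share summed over the rows is a description and was given no test.

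Mitochondrial rows, the other organelle genome, moved alike. Their share ran from 0.447% to 15.01% of a library, and the ratio of hyl1 to Col0 was 4.19 in ACR4, 0.283 in SCR, 4.91 in WER and between 0.824 and 1.76 in the other 3 lines. Plastid counts per 100 mitochondrial counts ran from 14.99 to 44.5 in 23 libraries and reached 93.3 in the Col0 WER replicate 1 library. A set of 10 nuclear rows that exceeded their 35S level most in the layer libraries, led by AT5G35200, AT1G64880 and PSAT, a serine biosynthesis enzyme, also moved with the share. They took 0.299% to 0.349% of the 35S libraries and 2.25% to 30.8% of the layer libraries, and their hyl1 to Col0 ratio was 3.84 in ACR4, 0.417 in SCR, 8.93 in WER and 0.957 to 1.03 elsewhere. The 10 rows were picked from these data for their excess over the 35S line, and what they and the organelle rows share was not tested.

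Against the mean of the 5 layer lines, plastid rows were lower in the 35S line. Of 128 rows tested, 110 were lower and 0 higher (edgeR quasi-likelihood test, adjusted p under 0.05), where 15.2% of all 23219 genes tested were lower, 16% higher and 31.1% either. The median log2 difference was −2.86 over the plastid rows and −0.02 over all genes, and the fitted difference was negative for 128 of 128 rows. Under library totals without further scaling the plastid median lay 2.83 below that of all genes, as against 2.84 with the main scaling. Within the run of library numbers that the 35S, ACR4, SCR and CO2 lines share, 121 rows were lower. Mitochondrial rows moved the same way, with 97 of 145 lower and 0 higher.

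The rows with a product show the size of this difference. ATCG00670 (CLP P) was at 26.8 and 32.2 CPM in Col0 and 24.9 and 35.1 CPM in hyl1 of the 35S line, and at 27.7 to 412 CPM in the layer libraries. Only 1 layer library, Col0 WER replicate 1, fell within the 35S range. The log2 difference was −2.67 (SE 0.21, edgeR adjusted p = 2.38e-08). ATCG00750 (ribosomal protein S11) had 2.55 to 4.53 CPM in the 35S line and 4.86 to 105 CPM in the layer libraries, with no overlap. Its log2 difference was −3.40 (SE 0.25, edgeR adjusted p = 1.07e-08). ATCG01310, ATCG00660, ATCG00530 and ATCG00430 were lower by 3.02 to 3.37 on the log2 scale. The largest fitted falls among the rows called were those of ATCG00880 and ATCG01260, a matched pair with few counts. ATCG00880 had at most 0.313 CPM in any 35S library and up to 11.4 CPM in the layers, and without the Col0 WER replicate 2 or the hyl1 WER replicate 1 library neither row passed. Leaving out either library leaves a WER group without any count of these rows. In the full data both rows already had no count in the hyl1 35S group and 3 counts in the Col0 35S group, and they were called. The fitted size of their falls is therefore not well determined, and why the calls were lost was not tested. In 17 of the 128 rows some group had no count in the full data, where a comparison averaged over groups can return a p of 1 whatever the other libraries show.

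ATCG00020 differed less than the median plastid row, inside the range of the 128 rows tested, −5.18 to −0.02 on the log2 scale. It had 251 and 224.2 CPM in Col0 and 134 and 174 CPM in hyl1 of the 35S line, and 123 to 1202 CPM in the layer libraries. The ranges overlapped, since the Col0 WER libraries had 123 and 153 CPM. The log2 difference was −1.24 (SE 0.14, edgeR adjusted p = 2.22e-06), less than the median of the plastid rows. Leaving aside the 4 rows with the most counts, ATCG00020 made up 24.6% and 20.6% of the remaining plastid counts in the Col0 35S libraries, 16.5% and 15.99% in the hyl1 35S libraries and 3.37% to 11.3% in the layer libraries. In the 35S line no library overlapped with a layer library in this share, which does not depend on the scaling between libraries. The separation depends on leaving those 4 rows aside. Of all plastid counts ATCG00020 made up 7.55% to 17.2% in the 35S line and 0.547% to 8.23% in the layer libraries, which overlap.

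**Figure D2:**
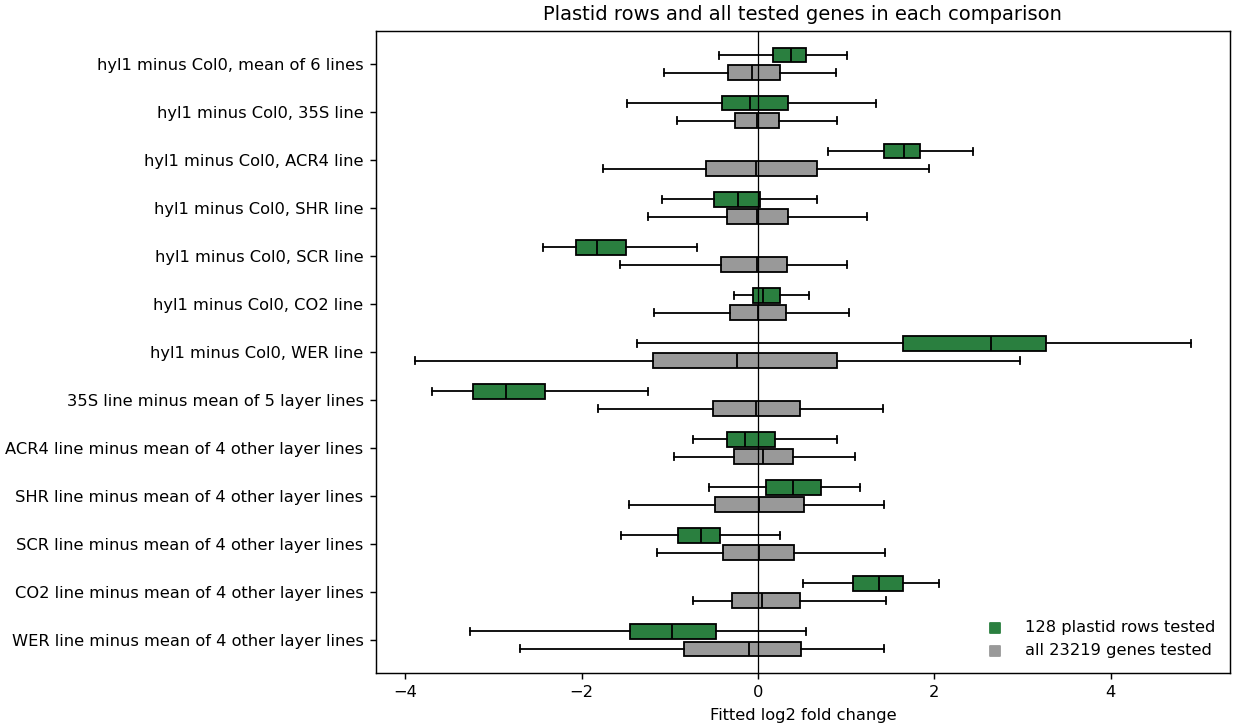
Fitted log2 fold change of the 128 plastid rows tested (green) and of all 23219 genes tested (grey) in each comparison; boxes span the 25th to 75th percentile with the median as a line, and whiskers the 5th to 95th. The plastid boxes lie far from 0 in the 35S line (median −2.86), in hyl1 of the ACR4, SCR and WER lines (1.65, −1.82 and 2.65) and in the CO2 line (1.37), where the box of all genes lies around 0.

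Among the layer lines, each set against the mean of the 4 others, the CO2 line had the highest levels for most rows. There 90 of 128 rows were higher and 0 lower, where 8.41% of all genes were higher, 6.68% lower and 15.1% either, with a median of 1.37 against 0.04 over all genes. ATCG00670 had 412 and 322.5 CPM in Col0 and 337 and 372 CPM in hyl1 of the CO2 line. These values overlap with those of the hyl1 ACR4 and hyl1 WER libraries, which reached 379 and 389 CPM. The log2 difference was 1.16 (SE 0.16, edgeR adjusted p = 8.25e-05). ATCG00530 was higher by 1.91 (SE 0.17, edgeR adjusted p = 4.53e-07) and ATCG00020 by 1.57 (SE 0.12, edgeR adjusted p = 1.45e-07). ATCG01180, with the most counts of all rows, gave −0.10 (SE 0.38, edgeR adjusted p = 0.904). ATCG01030 and ATCG00590 had the largest fitted rises, but their counts were few. ATCG01030 was at 3.55, 0.797, 0 and 3.77 CPM in the CO2 libraries and had no count in 14 libraries, and neither row passed without Col0 CO2 replicate 1 or hyl1 CO2 replicate 2. Mitochondrial rows were higher in the CO2 line for 131 of 145. Of the same 145 rows, 74 were higher and 0 lower in the SHR line, and 2 higher and 31 lower in the SCR line. In the ACR4 line 4 were higher and 7 lower, and in the WER line 0 higher and 112 lower. The layer comparisons share libraries with one another, so the counts of one are not independent of the next.

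In the SHR line 31 rows were higher and 0 lower, where 14.1% of all genes were higher, 12.2% lower and 26.3% either, with a median of 0.40 against 0.01. ATCG00660, ribosomal protein L20, was at 77.2 and 94.7 CPM in Col0 SHR and 63.5 CPM in both hyl1 SHR libraries. The 2 Col0 SHR libraries lay above all libraries of the other lines, which reached 69.3 CPM at most, and the hyl1 SHR libraries did not. Its log2 difference was 1.25 (SE 0.18, edgeR adjusted p = 4.76e-05). The matched pair ATCG01140 and ATCG00990 had the largest fitted rises at 0.545 to 4.66 CPM, and both lost the call without Col0 SHR replicate 2 or hyl1 SHR replicate 2. Without Col0 SHR replicate 2 the count fell to 7 rows, without hyl1 SHR replicate 1 to 11 and without hyl1 SHR replicate 2 to 15. Without the WER line 24 rows were higher and 10 lower.

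Averaged over both genotypes, the SCR line had 44 rows lower and 0 higher. Of all genes 8.11% were lower, 12.2% higher and 20.3% either, and the plastid median was −0.65 against 0.01. Without the 4 rows with the most counts, the mean plastid share of Col0 SCR was 0.775%, inside the 0.162% to 1.24% of the other Col0 layers. That of hyl1 SCR was 0.268%, below the 0.708% to 1.27% of the other hyl1 layers. The matched pair ATCG00920 and ATCG01210 fell most, by 2.02 and 2.01 (SE 0.48 each, edgeR adjusted p = 0.00584 and 0.00599). ATCG00920 had 388 and 602 CPM in Col0 and 172 and 240 CPM in hyl1 of the SCR line, against 228.5 to 5557 CPM in the other layers, so the ranges overlapped. Within that shared run of library numbers 102 rows were lower, but there the other layers are the ACR4 and CO2 lines only. Under library totals only, 28 were lower. Without Col0 SCR replicate 1 the count was 10, without hyl1 SCR replicate 1 it was 13, without hyl1 SCR replicate 2 it was 27 and without hyl1 SHR replicate 1 it was 29.

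In the ACR4 line 2 rows were lower and 0 higher, where 3.88% of all genes were lower, 8.32% higher and 12.2% either. They are the matched pair ATCG01280 and ATCG00860, each lower by 0.68 (SE 0.20, edgeR adjusted p = 0.0314 and 0.0332). ATCG01280 had 186 and 131 CPM in Col0 and 531 and 519 CPM in hyl1 of the ACR4 line, which lie inside the range of the other layers, 106 to 1320 CPM. The count depended on single libraries when each was left out in turn. It rose to 40 without the WER line. Within the shared run of library numbers, where the other layers are the SCR and CO2 lines only, it rose to 31.

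The WER line was divided. Averaged over both genotypes, it had 75 rows lower and 6 higher. Of all genes 22.7% were lower, 19.2% higher and 41.9% either, and the plastid median was −0.98 against −0.10. Without the 4 rows with the most counts, the mean plastid share of Col0 WER was 0.162%, below the 0.325% to 1.24% of the other Col0 layers. That of hyl1 WER was 0.754%, inside the 0.268% to 1.27% of the other hyl1 layers. The 6 higher rows form 3 matched pairs, led by ATCG01180 and ATCG00950, both higher by 2.55 (SE 0.33, edgeR adjusted p = 1.02e-05 each). ATCG01180 was at 5595 and 1125 CPM in Col0 WER and 13555 and 12767 CPM in hyl1 WER, and at 354 to 5502 CPM in the other layer libraries. Both hyl1 WER libraries lay above every other library. The largest fitted falls were those of ATCG00210 and ATCG00440, rows without any count in 3 of the 4 WER libraries, whose remaining values were 1.35 CPM in Col0 WER replicate 2 for the first and 5.86 CPM in hyl1 WER replicate 1 for the second. In the WER libraries 12 to 27 of the 133 rows had no count, against 0 to 8 in the other layer libraries, although their totals were the largest of all.

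**Figure D3:**
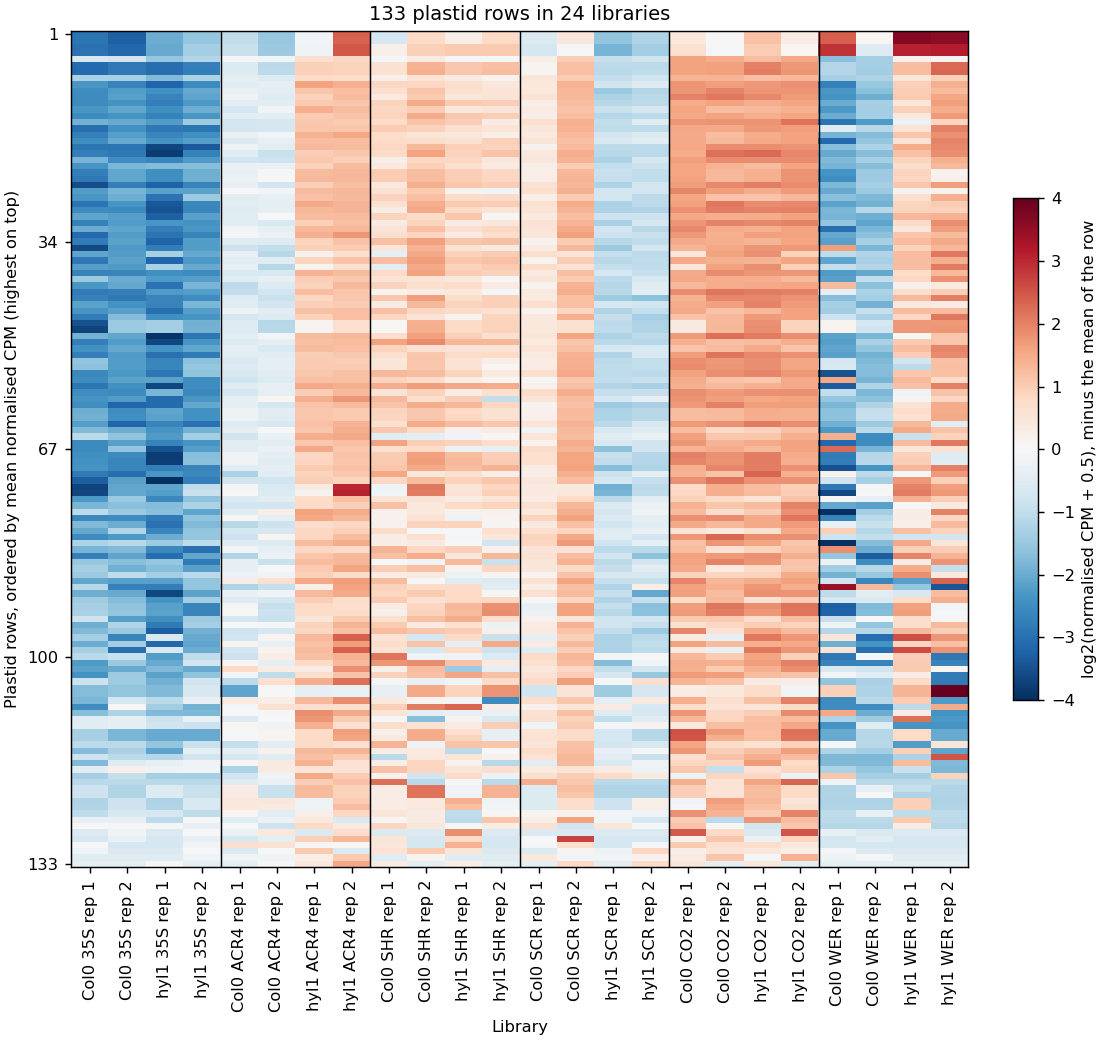
Level of each of the 133 plastid rows in each of 24 libraries, as log2 of normalised CPM plus 0.5 minus the mean of the row (red above, blue below); rows run from the highest mean level on top to the lowest, and lines separate the 6 lines. Most rows are blue in the 35S, hyl1 SCR and Col0 WER libraries and red in the CO2 libraries, and the 4 rows at the top follow another order, with their highest values in the hyl1 WER libraries.

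The effect of hyl1 was then tested within each line. In the ACR4 line plastid rows were higher in the mutant. Of 128 rows, 68 were higher and 0 lower, where 6.29% of all genes were higher, 8.43% lower and 14.7% either, and the fitted difference was positive for 128 rows with a median of 1.65 against −0.02 over all genes. ATCG00670 was at 86.3 and 124 CPM in Col0 and 379 and 324 CPM in hyl1. ATCG00750 was at 17.3 CPM in both Col0 libraries and at 47.7 and 50.4 CPM in hyl1. The genotypes did not overlap in either row. The differences were 1.74 (SE 0.32, edgeR adjusted p = 0.0011) and 1.50 (SE 0.34, edgeR adjusted p = 0.00543), and the second missed the threshold without either Col0 ACR4 library (edgeR adjusted p up to 0.058 over its alternatives). The largest rises were 2.85 for ATCG01180 (SE 0.72, edgeR adjusted p = 0.0111) and 2.85 for ATCG01210 (SE 0.80, edgeR adjusted p = 0.0211). ATCG01180 had 530 and 370 CPM in Col0 and 984 and 5502 CPM in hyl1, so that its size rests on 1 library. It gave 1.13 without hyl1 ACR4 replicate 2 and did not pass then, nor without either Col0 ACR4 library (edgeR adjusted p of 0.0699 to 0.432 in these 3 fits).

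Leaving out Col0 ACR4 replicate 1, Col0 ACR4 replicate 2 or hyl1 ACR4 replicate 2 reduced the 68 rows to 29, 28 and 34. In the same comparison 55 of 145 mitochondrial rows were higher. Markers of other cell types moved as well. Of 5 stele markers 4 were higher in hyl1, and their summed level was 56.2 and 69.4 CPM in Col0 and 203 and 208 CPM in hyl1. Green-tissue markers summed to 36.8 and 39.7 CPM in Col0 and 110 and 123 CPM in hyl1. Of these 1 of 14 was higher and 0 lower, beside 6.29% of all genes higher and 8.43% lower. Of 6 endodermis markers 3 were higher and 0 lower, and of 6 epidermis markers 0 were higher and 2 lower. Of 3 cortex markers 0 passed. Of 6 columella markers 4 were lower and CR4, the gene whose promoter drives this line's tag, was higher, at a mean of 168 CPM in Col0 and 1100 CPM in hyl1. The part of these shifts in the plastid result was not tested.

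In the SCR line plastid rows were lower in the mutant. Of 128 rows, 52 were lower and 0 higher, where 1.37% of all genes were lower, 0.53% higher and 1.89% either, with a median of −1.82 against −0.01. ATCG00770 had 37.2 and 64.7 CPM in Col0 and 10.2 and 8.64 CPM in hyl1. ATCG00160 had 15.5 and 38.9 CPM in Col0 and 3.50 and 5.04 CPM in hyl1. These rows gave the largest falls that passed, without overlap between the genotypes. The differences were −2.43 (SE 0.33, edgeR adjusted p = 0.00037) and −2.66 (SE 0.45, edgeR adjusted p = 0.0024). ATCG00670 fell by 1.58 (SE 0.32, edgeR adjusted p = 0.00919), from 171 and 306 CPM to 73.4 and 86.0 CPM. It did not pass without Col0 SCR replicate 2 or either hyl1 SCR library.

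The SCR count fell without Col0 SCR replicate 2 and without either hyl1 SCR library, and it was 0 in a fit of the 4 libraries of the line alone. Col0 SCR replicate 2 is the library with the low endodermis marker sum, and it had the higher plastid share of the 2 Col0 libraries. In the same comparison 65 of 145 mitochondrial rows were lower, and 0 of 6 endodermis markers passed the test.

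The WER line showed the widest differences between genotypes. Of 128 rows, 92 were higher and 2 lower in hyl1, where 15.8% of all genes were higher, 23.3% lower and 39.1% either, and the median was 2.65 against −0.24 over all genes. With rows that had no count in 1 group set at the bound that 3 counts over that group give, the plastid median was 2.55. ATCG00670 was at 27.7 and 52.4 CPM in Col0 and 265 and 389 CPM in hyl1. ATCG00750 was at 4.86 and 5.98 CPM in Col0 and 47.2 and 88.1 CPM in hyl1. Neither row overlapped between genotypes. The differences were 3.03 (SE 0.33, edgeR adjusted p = 4.34e-06) and 3.63 (SE 0.37, edgeR adjusted p = 2.04e-06).

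The rows with the largest fitted rises, ATCG00410 and ATCG00390, had no count in either Col0 WER library. Their summed counts in hyl1 were 92 and 80, which makes them at least 34.3-fold and 29.8-fold higher than 3 counts over the Col0 group would be. Nearly all of these counts came from hyl1 WER replicate 2, with 9.29 and 7.43 CPM against 0.217 and 0.868 CPM in replicate 1, and ATCG00410 did not pass without it. ATCG00690 had the largest fall, at 58.0 and 12.5 CPM in Col0 and 1.30 and 0 CPM in hyl1, and it fell by 5.74 (SE 1.12, edgeR adjusted p = 0.000669). ATCG00210 had 0 and 1.35 CPM in Col0 and no count in hyl1, at least 4.77-fold lower, and its call was lost without Col0 WER replicate 2 and without hyl1 WER replicate 2.

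A fit of the 4 WER libraries alone called 21 rows higher and 0 lower. In the main fit 93 of 145 mitochondrial rows were higher and 4 lower. Stele markers were higher for 4 of 5 and endodermis markers for 5 of 6, with summed stele levels of 33.8 and 41.8 CPM in Col0 and 262 and 492 CPM in hyl1. Columella markers were lower for 4 of 6, at 343 and 458 CPM in Col0 and 90.7 and 100.5 CPM in hyl1, and epidermis markers were divided, with 1 higher and 2 lower. Of 14 green-tissue markers 7 were higher and 1 lower with a median of 2.34, and their summed level was 17.2 and 25.7 CPM in Col0 and 80.6 and 159 CPM in hyl1. The part of these shifts in the plastid result was not tested.

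In the other 3 lines no plastid row passed the test in edgeR or in DESeq2 when all libraries were fitted together. In the 35S line 2 of 128 rows had an unadjusted p under 0.05, in the SHR line 2 and in the CO2 line 0. Of all genes 0.0991% passed with adjustment in the 35S line (0.0904% higher, 0.00861% lower), 0.0818% in the SHR line (0.0775% higher, 0.00431% lower) and 0.142% in the CO2 line (0.0861% higher, 0.056% lower). The plastid medians were −0.09, −0.23 and 0.06. For ATCG00670 the differences were 0.02 (SE 0.32), −0.42 (SE 0.31) and −0.05 (SE 0.31), and for ATCG00750 −0.49 (SE 0.41), −0.12 (SE 0.34) and −0.05 (SE 0.33). ATCG01180 had 140 and 111 CPM in Col0 and 269 and 365 CPM in hyl1 of the 35S line, without overlap. Its difference of 1.34 (SE 0.69) did not pass in the fit of all libraries. A fit of the 4 libraries of the 35S line alone called 4 rows, all higher.

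The effect of hyl1 differed between lines for 85 of the 128 rows (edgeR, interaction of genotype and line), where 17.7% of all genes passed. ATCG00340 and ATCG00350 were singled out after their values were seen, as the smallest, with an edgeR adjusted p of 3.99e-06 and 4.18e-06. ATCG00340 had 28.7 and 45.6 CPM in Col0 WER and 295 and 357 CPM in hyl1 WER. It had 198 and 372 CPM in Col0 SCR and 52.3 and 65.1 CPM in hyl1 SCR. In the CO2 line it had 504 and 588 CPM in Col0 and 508 and 501 CPM in hyl1. The genotypes were thus separated in opposite directions in the WER and SCR lines and overlapped in the CO2 line.

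The mean effect over the 6 lines combines these opposite values. It called 27 rows higher and 0 lower, which is 21.1% of the plastid rows beside 19.8% of all genes called in either direction, 7.84% called higher and 12% called lower, with a median of 0.37 against −0.07. ATCG00670 gave 0.46 (SE 0.13, edgeR adjusted p = 0.0159) and ATCG01180 gave 0.94 (SE 0.28, edgeR adjusted p = 0.0215), while ATCG00020 gave 0.00 (SE 0.10, edgeR adjusted p = 0.993). Without the WER line 2 rows were higher and 3 lower, and the value of ATCG00670 became −0.05.

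The make-up of the plastid counts also varied. The 4 rows with the most counts took 20.0% to 91.6% of the plastid counts of a library. In the 35S line they took 30.0% and 25.0% in Col0 and 51.1% and 52.8% in hyl1. In the WER line they took 91.6% and 65.8% in Col0 and 82.3% and 74.6% in hyl1, above the libraries of every other line. Elsewhere the replicates could differ widely, as in the hyl1 ACR4 group with 25.0% and 64.6%. The higher plastid share of hyl1 in the 35S line lay in these rows. Without them the 35S shares were 0.139% and 0.145% in Col0 and 0.109% and 0.146% in hyl1, which overlap.

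Without these 4 rows the plastid share of a library was 0.109% to 1.29%. The ratio of hyl1 to Col0 was then 2.48 in the ACR4 line and 4.66 in the WER line, Col0 was 2.89 times hyl1 in the SCR line, and the ratio was 0.899, 0.829 and 1.02 in the 35S, SHR and CO2 lines. The Col0 WER libraries, at 1.95% and 0.467% with all rows, had 0.164% and 0.160% without these rows. The gap between those replicates lay in the 4 rows, while the other 129 rows gave shares just above the 0.109% to 0.146% of the 35S line.

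**Figure D4:**
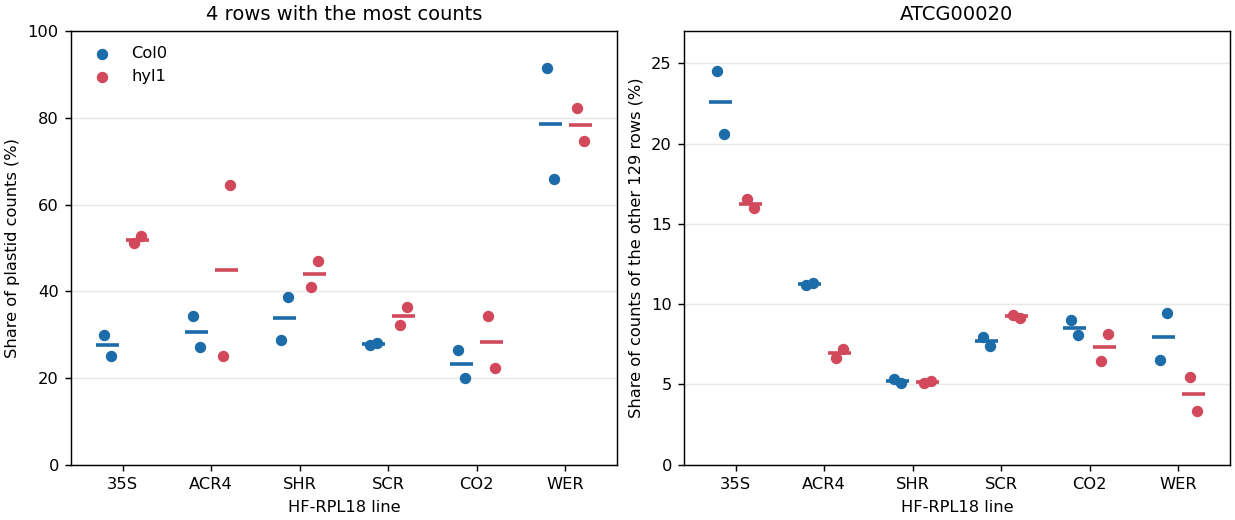
Left, the 4 rows with the most counts as a percent of the plastid counts of each library; right, ATCG00020 as a percent of the counts of the other 129 rows. Points are libraries and bars the mean of 2, blue Col0 and red hyl1; the WER libraries lie at 65.8% to 91.6% on the left, and the 35S libraries at 15.99% to 24.6% on the right, above all layer libraries.

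Nuclear genes of plastid gene expression were counted in the same fits, 22 of a list of 23 being tested. Among the phage-type polymerases, SCA3, which transcribes plastid genes, had a mean of 8.7 CPM in Col0 and 7.8 CPM in hyl1 of the 35S line and 20.4 to 219 CPM over the layer groups. Against the layers it was lower in the 35S line by 2.94 (SE 0.26, edgeR adjusted p = 1.28e-07). AT5G15700, annotated as a DNA/RNA polymerase, was lower by 3.34 (SE 0.35, edgeR adjusted p = 7.25e-07). Their summed level in the 35S line, 12.3 to 21.2 CPM, did not overlap with the 27.7 to 479 CPM of the layers. In hyl1 of the WER line they were higher by 2.41 (SE 0.39, edgeR adjusted p = 0.000139) and 2.34 (SE 0.50, edgeR adjusted p = 0.00132). In the SCR line their differences were −1.14 and −1.43 (edgeR adjusted p = 0.217 and 0.229), which did not pass.

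Of 5 sigma factors tested, which give the plastid-encoded polymerase its promoters, 1 was lower in the 35S line than in the layers and 0 higher, and of 12 polymerase-associated proteins 4 were lower and 1 higher, beside 15.2% of all genes lower and 16% higher. SIGC was the sigma factor that was lower, by 0.95 (SE 0.28, edgeR adjusted p = 0.0139). PTAC6, a protein of the transcriptionally active plastid chromosome, was the one that was higher, by 0.56 (SE 0.20, edgeR adjusted p = 0.0395). Of 3 regulators, GUN1, which acts in signalling from the plastid to the nucleus, was lower by 1.14 (SE 0.27, edgeR adjusted p = 0.00346). Summed over the list's 4 groups, the count in hyl1 of the WER line was 6 higher and 1 lower of 22, beside 15.8% of all genes higher, 23.3% lower and 39.1% either. PTAC12 was among those higher, by 2.35 (SE 0.39, edgeR adjusted p = 0.000165).

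Nuclear genes of photosynthesis, a marker of green tissue, ran opposite to the plastid rows between the 35S line and the layers. In other comparisons they ran in the same direction or in the opposite one. Over all libraries the correlation of their summed level with the plastid share, both as log2, was −0.09. Of 14 tested, 7 were higher in the 35S line than in the layers and 0 lower, beside 16% of all genes higher and 15.2% lower. Their summed level was 107 to 183 CPM in the 35S line against 17.2 to 159 CPM in the layers. As the mean over 6 lines, 7 of the 14 were higher in hyl1 and 0 lower, beside 7.84% of all genes higher and 12% lower. In hyl1 of the WER line 7 were higher and 1 lower, beside 15.8% of all genes higher, 23.3% lower and 39.1% either. In the CO2 line, against the other layers, 5 were higher and 0 lower with a median of 0.91, beside 8.41% of all genes higher and 6.68% lower. In hyl1 of the SCR line, where the plastid median was −1.82, 1 was higher and 0 lower with a median of 0.55. Of all genes 0.53% were higher and 1.37% lower there. In the SHR line, against the other layers, 0 were higher and 2 lower with a median of −0.30. There the plastid median was 0.40, and 14.1% of all genes were higher and 12.2% lower. RBCS1A, the small subunit of Rubisco, had a mean of 9.7 CPM in Col0 and 37.5 CPM in hyl1 of the 35S line. Its difference there was 1.95 (SE 0.40, edgeR adjusted p = 0.105), which did not pass. In that comparison 0 of the 14 genes passed, beside 0.0991% of all genes.

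**Figure D5:**
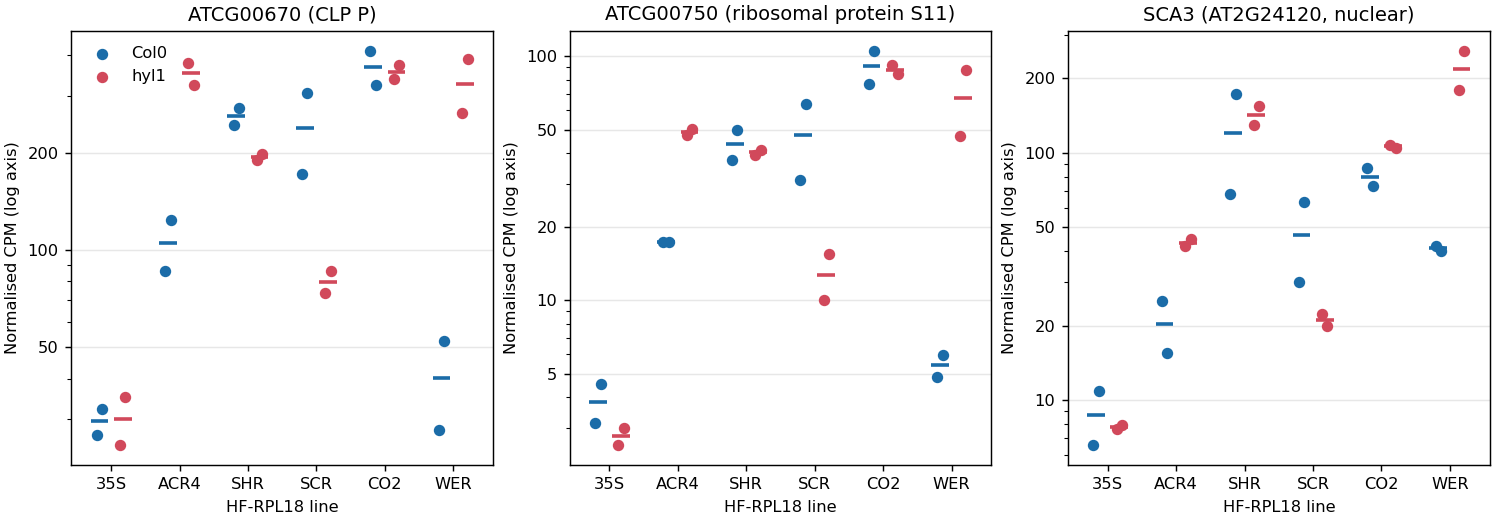
Normalised CPM (log axis) of ATCG00670, ATCG00750 and the nuclear gene SCA3 in each library by line; points are libraries, bars the mean of 2, blue Col0 and red hyl1. By group mean all are lowest in the 35S line, where SCA3 has a mean of 8.7 CPM in Col0, and hyl1 lies above Col0 in the ACR4 and WER lines and below it in the SCR line.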

How the data were processed

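The deposited values are counts of reads per gene. Per the submitters' processing notes, the tools include featureCounts of Subread, Bowtie2 (2.2.1.0) and TopHat2 (2.0.11) and CASAVA (1.8.2), on TAIR10; how strand and reads with several matches were treated is not given in the sources used here. From the deposited counts of 33602 rows, 23219 passed edgeR's filterByExpr (minimum count 10, minimum total 15) and were fitted over 12 groups with TMM scaling and the quasi-likelihood test (edgeR 4.0.16 in R 4.3.3). P-values were Benjamini-Hochberg adjusted over all rows tested, with a threshold of 0.05. DESeq2 1.42.0, other scalings, other sample sets and leaving out each library were tried as alternatives. Libraries of a line with the same replicate number did not deviate together across genes, so no block was used in the main fit. CPM were normalised with TMM in the text and figures; Wilson intervals cover counting error only, as reads carry no molecular identifiers.

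The plastid rows and the gene lists were chosen with earlier results of these data known. Rows to be named were to be the rows of several plastid genes by symbol, the rows with the most counts, the leading row of each role class and up to 3 largest called changes in each direction of a comparison. Symbols could not be matched, so, after the data were seen, the rows with a product, ATCG00020 and ATCG01180 stood in for them, with up to 2 identifiers in each direction. Only 6 ATCG identifiers have a product in the notes of the RefSeq annotation, so a split by role, a split by transcription unit and per-length levels were not made, and no sequence is printed. Nuclear symbols are RefSeq's. The testing code was checked on simulated counts.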

Additional observations from a re-analysis of the deposited data

Results flagged for a closer look

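The effect of hyl1 differed between the 6 lines for 85 of 128 plastid rows by the edgeR interaction test, where 17.7% of all genes passed. The smallest adjusted p-values were 3.99e-06 for ATCG00340 and 4.18e-06 for ATCG00350. In ATCG00340 both hyl1 libraries lay above both Col0 libraries in the WER and ACR4 lines and below them in the SCR line. The shifts in layer markers that go with these lines are given with each comparison, and their part was not tested.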

How the results depend on the processing

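Numbers of plastid rows called depended on the libraries used more than on the tool. Counts from alternative fits, here and above, are given without the share of all genes called in the same fit. For the mean effect of hyl1 (27 rows) DESeq2 called 42, the fit without the WER line 5 (2 higher, 3 lower) and the 35S, SHR and CO2 lines alone 2; there ATCG00670 reversed to −0.05 and −0.14 and ATCG00750 to −0.20 and −0.22. In fits of a line's own 4 libraries, hyl1 rows numbered 4 in 35S, 114 in ACR4, 0 in SCR and 21 in WER. The SCR effect called 86 without the WER line. The ACR4 layer comparison called 8 with DESeq2, 40 without the WER line and 31 in the shared run of library numbers, and the SCR layer comparison 28 with library totals only, 93 and 102. A line missing from such a fit is also missing from the mean of the other layers, so these counts rest on another reference. Library totals moved the median log2 difference of all genes from −0.02 to 0.49 in the 35S line and from −0.24 to −0.56 in hyl1 WER, and the plastid medians kept their direction.

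Same-numbered libraries did not deviate together across genes (r of −0.09 to 0.07 per line). This gives no sign of pairing but cannot show whether they were grown or handled together. A replicate block gave 33 rows for the mean, 59 for ACR4, 43 for SCR, 85 for WER and 69 for the difference, and turned the 2 lower rows of the ACR4 layer comparison into 1 higher.

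Leaving out each library gave 14 to 57 rows for the mean, 28 to 90 for ACR4, 8 to 72 for SCR, 79 to 97 for WER, 71 to 107 for the difference, 102 to 110 for 35S, 0 to 19 for the ACR4 layer, 7 to 45 for SHR, 10 to 65 for the SCR layer, 72 to 113 for CO2, 71 to 91 for the WER layer and 0 for hyl1 in 35S, SHR and CO2. ATCG00210 in hyl1 WER ranged from −6.20 to 0.00, the latter without Col0 WER replicate 2 (fitted values of a row at 0 in both hyl1 libraries, so no bound). The cause was not tested.

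Without the 4 rows with most counts, mean shares were 0.142% and 0.128% (Col0 and hyl1 35S), 0.325% and 0.806% (ACR4), 0.854% and 0.708% (SHR), 0.268% (hyl1 SCR), 1.24% and 1.27% (CO2) and 0.754% (hyl1 WER). With all plastid rows kept, the mean shares as a percent of nuclear counts were 1.37 (hyl1 SHR), 1.76 and 1.97 (CO2) and 3.99 (hyl1 WER). Leaving out these 4 rows and using the 35S, SHR and CO2 lines alone were chosen after seeing the data. An alternative without ribosomal and transfer RNA rows was not run, since the identifiers are not paired with products.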
